A study of Mus musculus with 6 samples.

Results

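Expression of 9 complement genes was examined in cultured mouse cells, labelled as nucleus pulposus cells, of 3 Chsy3 genotypes. The genes were chosen by symbol, as components, an inhibitor and receptors of the complement system, and are 9 of the 46095 symbols in the count table. They are C1qa, C1qb, C1qc, C3, C4b, Cfb, Serping1, C3ar1 and C5ar1. All 9 passed the filter on low counts, which left 16061 genes.

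The nucleus pulposus is the gel-like core of the intervertebral disc, and Chsy3 encodes a chondroitin sulfate synthase. Cells were taken from mice of 8 weeks, digested with collagenase for 2 h, grown in medium with 20% fetal bovine serum and used at passage 2. The groups were wild type, Chsy3 heterozygous and Chsy3 knockout (labelled Chsy3KO), with 2 libraries each, all labelled male. The labels do not give the altered part of the gene, the strain, the number of mice behind a library or whether mice were pooled. Whether the paired libraries are separate cultures or mice is not stated, so p-values measure the spread between these libraries only, which may be technical.

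Complement is a cascade of proteases that marks particles and cells for uptake and releases peptides that attract myeloid cells. In the classical pathway C1q, built from A, B and C chains, binds its target and activates the proteases C1r and C1s, which cleave C4 and C2, and the resulting enzyme cleaves C3. In the alternative pathway factor B joins cleaved C3 to form a further enzyme on C3. Most circulating complement comes from the liver, but macrophages are a main source of C1q, and fibroblasts can secrete C1r, C1s and C3. Deposits of the terminal complement complex have been described in degenerate human discs.

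Library totals were 29622117 to 33899611 counts. A count of 0 allows up to 3 counts, which is 0.0880 to 0.104 CPM (counts per 1e6 counts of the library, scaled with TMM factors), a limit that covers counting error only. Chsy3 was 8.35 and 8.36 CPM in wild type, 5.79 and 6.20 in heterozygous and 3.58 and 2.23 in knockout, so the targeted gene followed the labels. The Y-linked gene Ddx3y had 0 counts in both heterozygous libraries, against 21.5 to 31.7 CPM in the other 4. Xist, the transcript of the inactive X chromosome, was at 651 CPM or more in every library. It was highest in heterozygous, at 60.2 and 59.7 CPM per kilobase of transcript against 36.3 to 37.0 in the other 4. Sex-linked and genotype differences therefore cannot be told apart in comparisons with the heterozygous libraries. The heterozygous libraries, with 0 counts of Ddx3y, go against their male label. The wild-type and knockout libraries held both Xist and Ddx3y, so the male label does not settle their sex make-up. Of 5 listed sex-linked genes 1 was higher and 4 lower in heterozygous than in wild type (19.2% and 19.7% of all genes). In knockout 2 were higher and 0 lower than in wild type (19.2% and 18.9% of all genes). The part of sex in the comparison of knockout with wild type was not tested. The notochord genes T, Noto, Shh and Foxa2 had 0 counts in all libraries and the aggrecan gene Acan 8 in all. Of 14 listed markers of nucleus pulposus and cartilage cells 6 were tested, summing to 58.5 to 79.8 CPM in a library. Among these, Col2a1, Sox9, Krt19 and Cd24a averaged 22.8, 16.0, 15.8 and 13.3 CPM in wild type. Krt19 averaged 0.759 CPM in heterozygous and 2.68 in knockout, while Sox9 was above wild type in both. Of the 6 tested, 3 were higher and 3 lower in heterozygous than in wild type (19.2% and 19.7% of all genes). In knockout 1 was higher and 2 lower than in wild type (19.2% and 18.9%). Listed fibroblast markers summed to 23484 to 45726 CPM in a library and macrophage markers to 12630 to 15643. The name nucleus pulposus cells is therefore that of the labels and not of these markers.

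The 9 genes lie at 6 places in the genome (GRCm38.p6, RefSeq gene table). The C1q genes are neighbours on chromosome 4, C1qb at chr4:136880126-136886200, C1qc at chr4:136889801-136892936 and C1qa at chr4:136895916-136898844, within 18719 bases. C4b (chr17:34728139-34743902) and Cfb (chr17:34856374-34862514) are 112471 bases apart, and C3 is at chr17:57203967-57228136. Serping1 is at chr2:84765360-84775444, C3ar1 at chr6:122847140-122856157 and C5ar1 at chr7:16246743-16259540.

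The RefSeq promoter table matched 5 of the 9 genes, C1qb, C1qc, C3, C3ar1 and C5ar1. For C1qc and C5ar1 its start lies inside the gene span given above, so some bases before the start lie within the gene. The 250 bases before the start are shown for C1qb and C1qc, neighbours that changed together in knockout, and for C3, the member with the largest called fold in knockout. All are written 5′ to 3′ on the minus strand, with motif matches in capitals, at chr4:136886201-136886450, chr4:136892915-136893164 and chr17:57228137-57228386.
C1qb: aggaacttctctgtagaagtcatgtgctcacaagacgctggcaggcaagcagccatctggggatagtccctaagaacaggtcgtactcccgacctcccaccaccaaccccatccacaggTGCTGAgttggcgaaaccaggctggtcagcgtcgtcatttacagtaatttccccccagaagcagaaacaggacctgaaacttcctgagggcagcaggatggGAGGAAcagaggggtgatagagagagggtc
C1qc: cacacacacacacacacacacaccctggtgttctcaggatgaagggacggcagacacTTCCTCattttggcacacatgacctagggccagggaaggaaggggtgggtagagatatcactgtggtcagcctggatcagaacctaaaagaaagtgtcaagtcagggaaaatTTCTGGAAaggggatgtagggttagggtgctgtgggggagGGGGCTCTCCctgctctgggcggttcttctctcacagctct
C3: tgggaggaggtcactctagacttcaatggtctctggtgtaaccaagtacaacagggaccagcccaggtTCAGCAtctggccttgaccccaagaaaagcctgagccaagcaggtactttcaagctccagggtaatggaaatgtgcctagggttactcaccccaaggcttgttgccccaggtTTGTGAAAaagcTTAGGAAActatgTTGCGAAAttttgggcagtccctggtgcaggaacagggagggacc
Matches were sought on both strands to 7 motifs of factors known at immune genes and of the core promoter, and no matches overlapped in these sequences. C3 held 3 matches to the C/EBP motif TTNNGNAA, at 70 to 63, 58 to 51 and 45 to 38 bases before the start, and 36.8% of 32851 promoter windows of that length held at least 1. The core of the myeloid factor PU.1, GAGGAA, stood at 30 to 25 bases in C1qb and, on the opposite strand, at 193 to 188 bases in C1qc, and was present in 23.3% of windows. The Maf motif TGCTGA was present in C1qb, C3, C3ar1 and C5ar1 (16.1% of windows). C1qc also held a match to the NF-kB motif, GGGGCTCTCC (7.25% of windows), and a C/EBP match. C3ar1 held the AP-1 motif TGANTCA (6.75%) and the TATA box TATAAA (12.4%), and C5ar1 a C/EBP match. None of the 5 held the interferon-gamma activated site TTCNNNGAA (7.02% of windows). These matches are descriptions of the sequence and not binding sites.

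Before the comparisons, the levels of the 9 genes were ordered within each genotype per kilobase of the longest coding transcript (RPKM, CPM per kilobase). In wild type C1qa was highest at 1114 and 1145 RPKM, followed by C1qb at 1049 ± 11.7 (SD, n = 2) and C1qc at 881 ± 11.3. The inhibitor gene Serping1 followed at 123 ± 0.728 RPKM, then C3ar1 at 89.9 ± 1.04 and C5ar1 at 83.1 ± 0.251. C3 stood at 33.4 ± 0.466 RPKM, C4b at 1.38 ± 0.102 and Cfb at 0.0214. Neighbours in this order did not overlap in wild type. In heterozygous and knockout C1qa and C1qb overlapped, and in knockout C5ar1 (129 ± 5.42 RPKM) stood above C3ar1 (113 ± 1.10). With all annotated exons joined, which makes C1qc 1931 bases long and not 1203, C1qc would be at 549 RPKM in wild type and keep its place.

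The C1q chain genes made up most of the counts of the 9 genes, and none of them differed by more than 0.21 log2 in any comparison. In bulk RNA, fewer cells of a type and less RNA per cell cannot be told apart. The 9 genes together held 0.435% to 0.442% of all counts in wild type, 0.468% to 0.476% in heterozygous and 0.530% to 0.541% in knockout, and the C1q genes alone 0.313% to 0.379% over all 6 libraries. In knockout against wild type 7 of the 9 genes were higher and 0 lower (edgeR quasi-likelihood test, p adjusted over all tested genes, threshold 0.05). All 9 had a positive log2 fold change in this fit, so 0 could be lower at any threshold, unadjusted p included. DESeq2 also called 0 lower, and there too all 9 log2 fold changes were positive, so the same limit holds. The background of calls was 19.2% of 16061 genes higher and 18.9% lower. In heterozygous against wild type 6 were higher and 1 lower, against a background of 19.2% and 19.7%. In knockout against heterozygous 5 were higher and 1 lower, against 19.1% and 17.9% (38.0%, 38.9% and 37.1% of all genes in either direction). The libraries of 8, 6 and 6 members lay wholly above those of the other genotype, and of 0, 1 and 1 wholly below. Over all genes the shares were 33.2%, 33.0% and 33.8% above, 33.4%, 34.0% and 31.8% below, and 66.6%, 67.0% and 65.7% in either direction. Any 2 of these 3 comparisons share the libraries of 1 genotype, so the 3 are not independent. The median log2 fold change of the 9 genes was 0.63, 0.33 and 0.15 in these comparisons, beside -0.0031, -0.0029 and 0.012 over all tested genes.

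**Figure D1:**
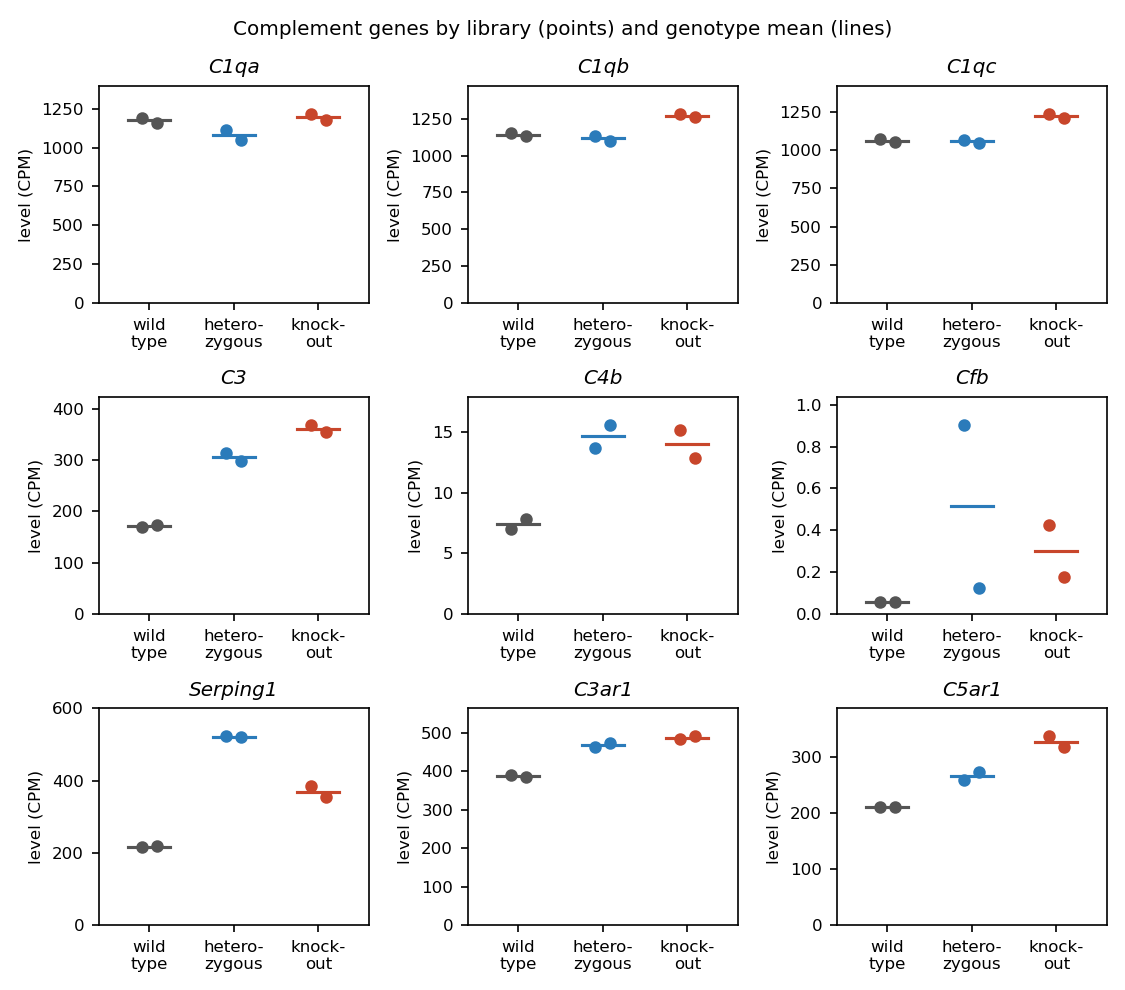
CPM of each complement gene, with a point per library, a line at the genotype mean and a separate axis from 0 for each gene. C3 stands at 170 to 173 CPM in wild type and at 298 to 368 in the other 4 libraries, Serping1 is highest in heterozygous, and the C1q genes differ little between genotypes.

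C1qa, C1qb and C1qc encode the chains of C1q, which recognises antibody complexes and dying cells. C1qa stood at 1191 and 1159 CPM in wild type, 1113 and 1052 in heterozygous and 1214 and 1180 in knockout. The heterozygous libraries were below all others, and wild type and knockout overlapped. C1qa fell by 7.89% in heterozygous against wild type (log2 fold change -0.12 ± 0.02, SE, edgeR adjusted p = 6.84e-05), while the knockout difference of 0.03 ± 0.02 log2 did not pass the threshold (adjusted p = 0.406 in edgeR, 95% interval -0.02 to 0.07).

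C1qb stood at 1151 and 1133 CPM in wild type, 1135 and 1101 in heterozygous and 1280 and 1261 in knockout. C1qc stood at 1070 and 1050 CPM in wild type, 1066 and 1049 in heterozygous and 1234 and 1210 in knockout. For both genes the knockout libraries lay above the other 4, which overlapped. In knockout against wild type C1qb was 11.3% higher (log2 0.15 ± 0.02, SE, edgeR adjusted p = 1.04e-07) and C1qc 15.3% higher (log2 0.20 ± 0.02, edgeR adjusted p = 1.16e-10). The heterozygous differences from wild type did not pass (edgeR, adjusted p = 0.294 and 0.934), with 95% intervals of -0.07 to 0.01 log2 for C1qb and -0.05 to 0.04 for C1qc. All 3 chain genes were higher in knockout than in heterozygous, by 0.15, 0.18 and 0.21 log2 for C1qa, C1qb and C1qc (edgeR, adjusted p at most 2.35e-06).

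The proportions of the C1q genes within a library shifted between genotypes. The ratio of C1qa to C1qb, on the RPKM scale, was 1.08 and 1.07 in wild type, 1.03 and 0.999 in heterozygous and 0.992 and 0.979 in knockout. The ratio of C1qc to C1qb ran from 0.839 in a wild-type library to 0.872 in a knockout library, and that of C1qa to C1qc ran from 1.29 and 1.28 in wild type to 1.21 and 1.16 in heterozygous and 1.14 and 1.13 in knockout. All 3 ratios were separated by genotype, with 2 libraries a genotype and no test of their own.

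C1r and C1s are the proteases that C1q sets in motion, and their genes moved by far more than those of the chains. C1ra stood at 40.1 and 38.6 CPM in wild type, 115 and 115 in heterozygous and 90.7 and 81.3 in knockout. C1s1 stood at 47.6 and 46.7 CPM in wild type, 175 and 166 in heterozygous and 106 and 106 in knockout. For both, the heterozygous libraries were highest and the wild-type libraries lowest, with no overlap. C1s1 was 2.25-fold higher in knockout and 3.62-fold higher in heterozygous, each over wild type (log2 1.17 ± 0.05 and 1.85 ± 0.05, SE, edgeR adjusted p = 9.49e-24 and 3.19e-31). Between knockout and heterozygous, C1s1 differed by -0.69 ± 0.04 log2 and C1ra by -0.42 ± 0.05 (edgeR, adjusted p = 5.74e-17 and 9.79e-09). Both have close copies, C1rb and C1s2, with 114 and 67 counts in all libraries, whose reads may have been shared with them in the counting.

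C4b encodes C4, the first substrate of C1s. It stood at 7.02 and 7.80 CPM in wild type, 13.7 and 15.6 in heterozygous and 15.2 and 12.8 in knockout. The wild-type libraries were lowest, and heterozygous and knockout overlapped. C4b was 1.89-fold higher in knockout (log2 0.92 ± 0.14, SE, edgeR adjusted p = 3.1e-07) and 1.98-fold higher in heterozygous (log2 0.98 ± 0.14, edgeR adjusted p = 9.06e-08), each against wild type. Knockout and heterozygous differed by -0.07 log2 with a 95% interval of -0.33 to 0.20 (edgeR, adjusted p = 0.746). Its near-identical neighbour C4a had 257 counts in all libraries against 2334 for C4b, and the sources used here do not give how their reads were divided. C2, cleaved together with C4, had 22 counts in all and was not tested.

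C3 is the protein on which all pathways meet. It stood at 170 and 173 CPM in wild type, 314 and 298 in heterozygous and 368 and 355 in knockout. The genotypes did not overlap. The fold over wild type was 2.10 in knockout (log2 1.07 ± 0.03, SE, edgeR adjusted p = 1.48e-28) and 1.78 in heterozygous (log2 0.83 ± 0.03, edgeR adjusted p = 1.81e-24). Knockout was also above heterozygous, by 0.24 ± 0.03 log2 (edgeR, adjusted p = 3.51e-08).

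Cfb, the gene of factor B, was close to absent. It had 2 and 2 counts in wild type, 26 and 4 in heterozygous and 14 and 6 in knockout, at most 0.902 CPM. The heterozygous libraries differed 7.17-fold from each other, and their range spanned the knockout values. The ratio of summed counts per depth was 8.41 in heterozygous against wild type (exact 95% interval 2.96 to 32.9) and 5.07 in knockout against wild type (1.70 to 20.4), intervals that cover counting error only. The heterozygous increase passed the threshold (log2 3.03 ± 1.06, SE, edgeR adjusted p = 0.0205), and the knockout difference did not (adjusted p = 0.104 in edgeR). That call was lost without heterozygous library 1, which holds 26 of the 30 heterozygous counts (log2 1.05, edgeR adjusted p = 0.685), and without wild-type library 1 or 2 (edgeR, adjusted p = 0.0993 and 0.0997).

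The other genes of the alternative pathway differed in level and pattern. Properdin, encoded by Cfp, stabilises the enzyme that factor B forms. Cfp stood at 122 and 122 CPM in wild type, 154 and 149 in heterozygous and 281 and 272 in knockout, with no overlap between genotypes. It was 2.26-fold higher in knockout than in wild type and 1.83-fold higher than in heterozygous (edgeR, adjusted p = 1.96e-28 and 1.28e-23). Factor D, which cleaves factor B and is a product of fat cells, is encoded by Cfd, which had 109 counts in all libraries. Cfd was higher than in wild type in both mutant genotypes (log2 2.05 ± 0.71 in knockout and 2.11 ± 0.72 in heterozygous, SE, edgeR adjusted p = 0.0196 and 0.0166). Genes of the terminal complex were at or near 0. Hc, which encodes C5, had 3 counts in all libraries, C6, C7 and C9 had 5, 2 and 8, and C8a and C8b had 0.

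Serping1 encodes the C1 inhibitor, a serpin that inactivates C1r and C1s. It stood at 216 and 218 CPM in wild type, 523 and 521 in heterozygous and 386 and 353 in knockout. Every heterozygous library was above every knockout library, and these above wild type. Against wild type, Serping1 was 2.40-fold higher in heterozygous (log2 1.27 ± 0.03, SE, edgeR adjusted p = 1.32e-31) and 1.70-fold higher in knockout (log2 0.77 ± 0.03, edgeR adjusted p = 1.02e-23). It was the 1 member called lower in knockout against heterozygous, at -0.50 ± 0.03 log2 (edgeR, adjusted p = 1.25e-17). The ratio of C3 to Serping1 on the RPKM scale was 0.271 and 0.274 in wild type, 0.207 and 0.197 in heterozygous and 0.328 and 0.346 in knockout, so the balance of these genes had opposite shifts in the mutant genotypes.

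The receptors C3ar1 and C5ar1 bind the peptides released from C3 and C5 and sit mainly on myeloid cells. C3ar1 stood at 390 and 384 CPM in wild type, 463 and 473 in heterozygous and 484 and 491 in knockout. Wild type was lowest without overlap, and the gap between heterozygous and knockout was narrow. C3ar1 was 1.26-fold higher in knockout and 1.21-fold higher in heterozygous, each over wild type (log2 0.33 ± 0.03 and 0.27 ± 0.03, SE, edgeR adjusted p = 3.53e-14 and 1.44e-11). Knockout exceeded heterozygous by 0.06 log2, with a 95% interval of 0.01 to 0.11, and this did not pass after adjustment (edgeR, adjusted p = 0.0772).

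C5ar1 stood at 211 and 212 CPM in wild type, 260 and 273 in heterozygous and 337 and 318 in knockout. The genotypes did not overlap. Its fold over wild type was 1.55 in knockout and 1.26 in heterozygous (log2 0.63 ± 0.03 and 0.33 ± 0.03, SE, edgeR adjusted p = 4.03e-20 and 3.14e-11), and knockout exceeded heterozygous by 0.30 ± 0.03 log2 (edgeR, adjusted p = 4.6e-10). The second C5a receptor gene, C5ar2, went the other way, at 6.496 and 6.592 CPM in wild type and 4.28 and 4.16 in knockout (log2 -0.63 ± 0.20, SE, edgeR adjusted p = 0.0105). Its heterozygous libraries were far apart, at 1.82 and 1.22 RPKM. Wild type was at 1.89 and 1.92 RPKM and knockout at 1.25 and 1.21.

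**Figure D2:**
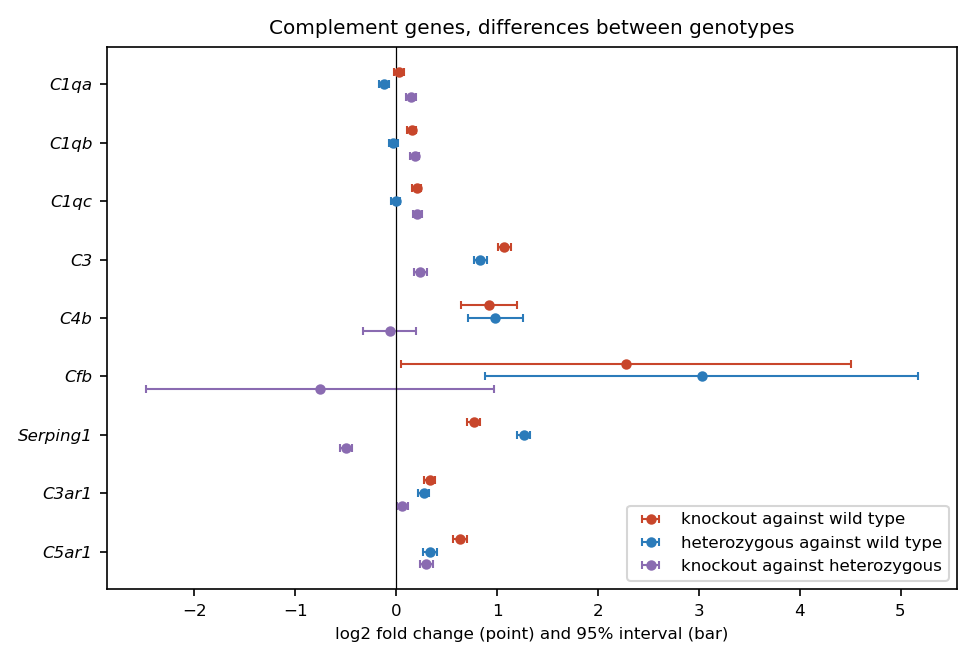
Log2 fold change (points) with its 95% interval (bars) for each complement gene in the 3 genotype comparisons, from the edgeR fit of all 6 libraries. C3 is at 1.07 and 0.83 against wild type, Serping1 has its larger difference in heterozygous at 1.27, the C1q genes stay within 0.21 of 0, and the bars of Cfb are the widest.

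A wider list held 48 further complement genes, of which 30 passed the filter and 5 had 0 counts in all libraries. Of the 30, 17 were higher and 2 lower in knockout than in wild type, 16 higher and 5 lower in heterozygous than in wild type, and 13 higher and 7 lower in knockout than in heterozygous (edgeR, adjusted p under the threshold of 0.05). Over all genes 19.2%, 19.2% and 19.1% were higher and 18.9%, 19.7% and 17.9% lower, so the lower calls in both comparisons with heterozygous were near the background. The median log2 fold changes were 0.62, 0.40 and 0.03. The count of 2 lower in knockout became 4 without heterozygous library 1 and 1 without knockout library 2.

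Among the recognition genes and their proteases, 5 of 8 were higher in knockout than in wild type, beside 19.2% of all genes. Masp1, a protease of the lectin pathway, stood at 36.0 and 36.3 CPM in wild type, 38.5 and 39.97 in heterozygous and 80.9 and 72.5 in knockout. The genotypes did not overlap, with knockout far above the other 4 libraries. The heterozygous difference from wild type did not pass (edgeR, adjusted p = 0.176), and Masp1 was 1.95-fold higher in knockout than in heterozygous (edgeR, adjusted p = 2.64e-16). Colec10, a lectin that starts this pathway, was 4.10-fold higher in knockout than in heterozygous (edgeR, adjusted p = 1.63e-07), and in heterozygous it was lower than in wild type (log2 -0.86 ± 0.30, SE, edgeR adjusted p = 0.0196). The ficolin gene Fcna was 3.07-fold higher in knockout and 1.80-fold higher in heterozygous, each over wild type (edgeR, adjusted p = 4.95e-10 and 0.000261).

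Among 10 further regulators, 6 were higher in knockout and 5 in heterozygous than in wild type, beside 19.2% of all genes in each. Clu, which encodes clusterin, a chaperone that blocks the terminal complex, was 4.83-fold over wild type in heterozygous and 2.77-fold in knockout (edgeR, adjusted p = 2.76e-25 and 2.58e-18). Cd55, which encodes a membrane protein that dissociates the C3-cleaving enzymes, had the same order of genotypes, at 2.39-fold and 1.80-fold (edgeR, adjusted p = 2.55e-11 and 3.53e-07). Csmd1, a membrane inhibitor, was highest in knockout, at 2.72-fold over wild type (edgeR, adjusted p = 8.66e-17). C4bp, which encodes an inhibitor of C4, was higher in knockout and lower in heterozygous than in wild type (log2 0.54 ± 0.18 and -0.80 ± 0.20, SE, edgeR adjusted p = 0.0164 and 0.00106). Cr1l, the rodent membrane regulator Crry, was at 33.6 to 36.7 CPM in wild type and 39.6 to 40.9 in knockout (edgeR, adjusted p = 0.0554).

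Among 9 further receptors, 4 were higher and 2 lower in knockout than in wild type. Over all genes 19.2% were higher and 18.9% lower, so the lower calls were near the background. Itgam and Itgb2 encode the chains of complement receptor 3, which takes up particles coated with cleaved C3. Itgam stood at 555 and 553 CPM in wild type, 687 and 687 in heterozygous and 846 and 846 in knockout, and both genes were 1.53-fold higher in knockout (edgeR, adjusted p = 6.15e-25 and 7.77e-21). Cd93 was 1.67-fold higher in knockout (edgeR, adjusted p = 6.93e-25). The lower genes were C5ar2 and C1qbp, which encodes a mostly mitochondrial protein that can bind C1q (log2 -0.33 ± 0.08, SE, edgeR adjusted p = 0.00115).

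**Figure D3:**
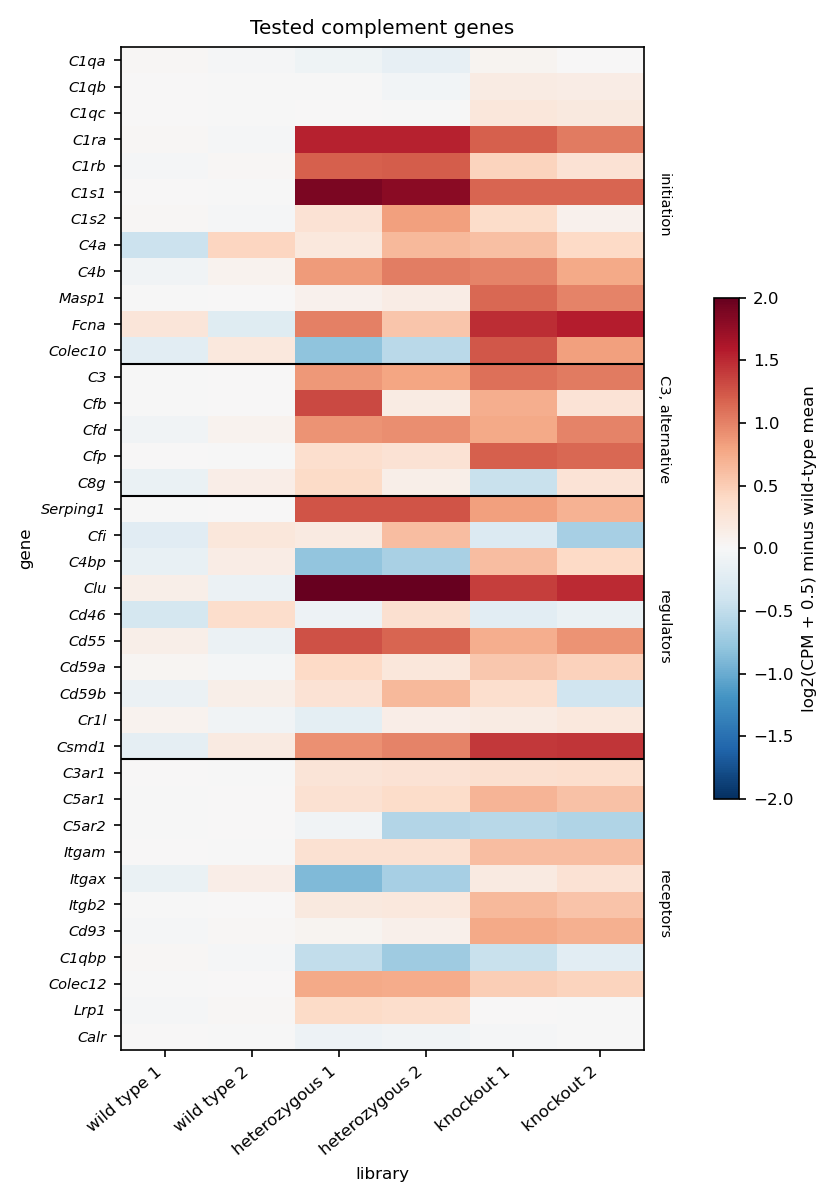
Difference of log2(CPM + 0.5) from the wild-type mean for 38 of the 39 tested complement genes (rows, grouped by role) in each library (columns), with the colour scale limited to 2 in either direction. C1s1, C1ra, Clu and Serping1 are highest in heterozygous, Masp1, Cfp and Colec10 in knockout, and the C1q rows are close to white.

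Markers of cell types that make these proteins also differed between genotypes. Of 18 tested macrophage markers (19 listed, Aif1 at 0 counts), 13 were higher and 1 lower in knockout than in wild type, 10 higher and 4 lower in heterozygous than in wild type, and 11 higher and 3 lower in knockout than in heterozygous. Over all genes 19.2%, 19.2% and 19.1% were higher and 18.9%, 19.7% and 17.9% lower. The lower calls of both comparisons with heterozygous were near these shares. The summed level of the macrophage markers was 12630 to 12889 CPM in wild type, 15634 to 15643 in heterozygous and 14738 to 14839 in knockout. Lyz2, the lysozyme gene, held 53.4% of this sum. Without it, a value added after seeing the data, the sum was 5507 to 5589 CPM in wild type, 6790 to 6797 in heterozygous and 7728 to 7800 in knockout, so that knockout and not heterozygous was highest. Mrc1, which encodes the mannose receptor, was higher by 1.28 log2 in knockout and 1.30 in heterozygous, and Cx3cr1 lower by -2.25 and -2.09. The part of macrophage content in the differences of C1q, C3ar1, C5ar1, Itgam and Cfp was not tested.

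The summed level of fibroblast markers was higher in heterozygous and lower in knockout than in wild type, while single markers differed in direction. Of 12, 4 were higher and 7 lower in knockout, and 9 higher and 1 lower in heterozygous, each against wild type. Over all genes 19.2% were higher and 18.9% lower in knockout, and 19.2% and 19.7% in heterozygous. The sum of the markers was 37872 to 38480 CPM in wild type, 44521 to 45726 in heterozygous and 23484 to 23607 in knockout. Fn1 held 38.8% of this sum. Without Fn1, a value added after seeing the data, the sum was 22531 to 22960, 28816 to 29530 and 13464 to 13533 CPM. C3, Serping1, C1ra and C1s1 were higher than in wild type in both mutant genotypes. In knockout Col1a1, Postn and Fn1, genes of the extracellular matrix, were lower (log2 -0.97, -1.04 and -0.62). Dcn and Pdgfra, also markers of fibroblasts, were higher in both mutant genotypes and had the order of Serping1, with Pdgfra at 94.0, 295 and 183 CPM on average in wild type, heterozygous and knockout. The part of fibroblast content in these results was not tested.

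Of 9 adipocyte markers 5 were tested, and all 5 were higher in each mutant genotype than in wild type (19.2% of all genes in each), with Lep and Pck1 at 0 counts. Their sum was 164 to 166 CPM in wild type, 301 to 303 in heterozygous and 415 to 416 in knockout, of which Lpl, the lipoprotein lipase gene, held 90.4%. Without Lpl the sum was 15.5 to 15.6, 28.2 to 31.6 and 38.4 to 39.8 CPM, and Adipoq and Plin1 averaged at most 2.08 and 0.929 CPM in a genotype. Their part in the differences of Cfd and C3 was not tested. Endothelial markers summed to 34.8 CPM in wild type, 27.6 to 29.8 in heterozygous and 74.2 to 77.5 in knockout. Of 5 tested, 3 were higher and 1 lower in knockout than in wild type (19.2% and 18.9% of all genes). Vwf held 69.0% of this sum. Their part in the rise of Cd93, which endothelial cells also express, was not tested. Of the hepatocyte markers 0 of 7 were tested and Alb had 5 counts in all libraries. Of the lymphocyte and neutrophil markers 1 of 13, Cd4, was tested, and 10 had 0 counts in all. Of 7 dendritic cell markers 2 were tested, and the list summed to at most 15.8 CPM in a library.

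**Figure D4:**
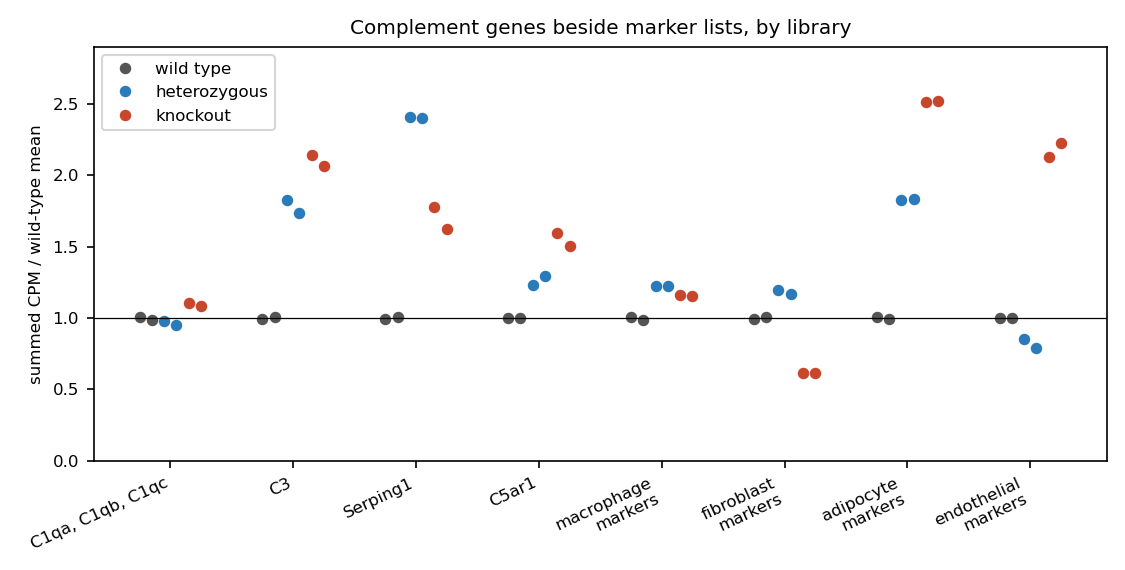
Summed CPM of the C1q genes, of C3, Serping1 and C5ar1, and of 4 marker lists in each library, divided by the wild-type mean, with a point per library. The C1q sum stays between 0.948 and 1.10, C3 reaches 2.14 in knockout, and the fibroblast sum falls to 0.615 in knockout and is at most 1.20 in heterozygous.

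The genes whose profile over the 6 libraries was most like each member were found among 9570 other genes by the root-mean-square difference of centred log2 CPM. For C5ar1 they were Itgam, the protease gene Ctsb and the chemokine receptor gene Ccr1, at 0.033 to 0.041 log2. For Serping1 they were Snhg11, Tgfbr3 and Gatm (0.027 to 0.050), and for C3 Maob, Pira6 and Serpina3g (0.077 to 0.080). For C4b they were Fam13c, Plppr3 and Mrps23 (0.065 to 0.095), and for C3ar1 Unc119, Pla2g15 and Pak1 (0.018 to 0.022). The C1q genes lay close to R3hdm1, Psmd9 and Dnaja3 for C1qa, Dpp9, Nsf and Sh3bgrl3 for C1qb, and Sema4d, Nt5c2 and Rab5c for C1qc (0.0067 to 0.019). The nearest to Cfb, Fgf10, Ms4a4d and Tmem26, were at 0.71 to 0.73 log2.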

How the data were processed

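RNA of 6 libraries was sequenced. The deposited values are raw read counts per gene symbol, as judged from whole numbers with a different total per column. Per the submitters' processing notes, HISAT2 2.0.4 and GRCm38 were used. Neither the counting tool nor its annotation or strand setting is stated in these sources, so genes with close copies or overlaps are uncertain. Columns were matched to libraries by title. All 6 libraries entered an edgeR 4.0.16 quasi-likelihood fit (R 4.3.3, TMM, default filter by group, robust, Chsy3 kept), with two-sided tests and Benjamini-Hochberg adjustment over 16061 genes. SE is the log2 fold change divided by the root of F, and intervals use the moderated degrees of freedom. Totals ran from 29622117 to 33899611 counts. RPKM used GENCODE M21 transcript lengths (GRCm38). Alternatives used DESeq2 1.42.0 and other settings. The procedure was tested on simulated data.

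The members, gene lists, naming rule and alternatives were chosen with earlier results of these data known. Named were the 9 genes, tested genes of 4 complement lists, for other lists the 4 with the smallest p or markers near 0, and the 3 nearest profiles. Untested complement genes, Cd4, Il6, Krt19, Cd24a and genes singled out for their share of a sum were named after their values were seen. Some genes of these lists are not reported here.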

Additional observations from a re-analysis of the deposited data

How the results depend on the processing

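Over 14 alternatives (RLE factors, library totals alone, DESeq2, no filter, a stricter filter of at least 1 CPM in 2 libraries, only the 4 libraries compared, no robust estimation, a replicate block, and each library left out), 361 of 373 values of the 27 member results kept their direction and side of the threshold. Cfb gave no value with the stricter filter, nor against wild type with only the 4 libraries compared, where 5 members and not 6 were higher in heterozygous. C1qa, C3, C4b, Serping1, C3ar1 and C5ar1 kept direction and side of the threshold against wild type in all 14. The exceptions not yet given follow. With library totals alone 2 members were lower in heterozygous than in wild type, as C1qb passed (log2 -0.07, edgeR adjusted p = 0.00551), and C3ar1 passed between knockout and heterozygous (log2 0.12, edgeR adjusted p = 0.000175). The same scaling moved the split of all genes called in knockout against heterozygous from 3070 higher and 2881 lower to 4126 and 2256; the cause was not tested. The heterozygous difference of C1qc, near 0, changed sign with RLE factors (0.0060) and DESeq2 (0.0056) and ranged from -0.017 to 0.0100 with a library left out. Between knockout and heterozygous C4b ranged from -0.19 to 0.052 and Cfb from -1.58 to 1.22 with a library left out. The 2 genes of the wider list lower in knockout became 4 with no filter and 1 to 4 with a library left out. Where a genotype was left with 1 library, it was assumed to vary like the others.

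The titles number the libraries 1 and 2 in each genotype, and nothing says that a number marks a shared mouse or day. The differences between library 1 and 2 correlated at -0.025, 0.0092 and 0.022 between genotypes across 16061 genes. With the replicate block the members called were 7 higher in knockout and 6 higher and 1 lower in heterozygous against wild type, and 5 higher and 1 lower between knockout and heterozygous, and it changed no call of a member. Cfb limits what depth can show, with 54 counts in all libraries.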

Other observations

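Genes that are known to induce complement were looked at as a further list of 28 cytokines, receptors and transcription factors, of which 25 were tested. The cytokine genes Tnf, Ifng and Ifnb1 had 0 counts in all libraries, which allows at most 0.104 CPM. In knockout against wild type 12 of the 25 were higher and 2 lower (edgeR, adjusted p under the threshold of 0.05), beside 19.2% and 18.9% of all genes. Cebpa, a C/EBP factor of myeloid and fat cells, was higher by 0.87 ± 0.06 log2 (SE), Spi1, which encodes PU.1, by 0.49 ± 0.04 and the kinase Jak1 by 0.34 ± 0.03. The lower genes were Il6st and Osmr, receptors of the interleukin 6 family (log2 -0.17 and -0.14).

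In heterozygous against wild type 13 of the 25 were higher and 4 lower, beside 19.2% and 19.7% of all genes, so the lower calls were near the background. The lower genes included the cytokine gene Il6 (log2 -1.29). Its level was low, at 1.27 and 1.34 RPKM in wild type and 0.459 and 0.604 in heterozygous. In the same comparison the interleukin receptor genes Il6st and Il1r1 were higher, by 0.73 ± 0.02 and 1.39 ± 0.07 log2 (SE), and Cebpa by 0.84 ± 0.06. Whether any of these genes bears on the complement genes was not tested.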
